A study of Mus musculus with 12 samples.

Results

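Integrins are cell surface receptors made of 1 alpha and 1 beta chain, and the alpha chain largely sets what the pair binds. The expression of 10 alpha subunit genes (Itga2, Itga2b, Itga4, Itga5, Itga6, Itga9, Itgal, Itgam, Itgav and Itgax) was compared between monocytes of the bone marrow (BMDM) and microglia of the brainstem (BSM). They were taken by gene name from the 18430 genes of the array table, and of several rows of a gene the one with the highest mean was kept. A row of its own was found for 9 of the 10. For Itga4, both rows were also annotated to Cerkl, so no value is given for it.

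The cells were sorted from C57BL/6 mice aged 6 weeks, with no genetic change or agent named in the labels. BMDM were CD11b+ CD45high CD115+ Ly6G- cells of the bone marrow and BSM were CD11b+ CD45low CD115low Ly6G- cells of the brain, both sorted after a Percoll gradient. Each cell type had 3 replicates, each a separately sorted pool of mice on its own array, and replicate 1 of each was female while replicates 2 and 3 were male by the labels. RNA was amplified before hybridization to the Affymetrix Mouse Exon 1.0 ST array, which reads the transcripts of a gene through many probes. Values are log2 of the Aroma intensity unless stated, differences are BSM minus BMDM on that scale, and a gene was called higher or lower where the adjusted p of limma was at or under 0.05.

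Leukocyte integrins are held in a bent, inactive state on circulating cells. Signals from chemokine or antigen receptors bring talin and kindlin to the tail of the beta chain, and the receptor opens to bind its ligand. On blood cells the alpha chains of the CD11 family pair with the beta chain of Itgb2 and carry firm adhesion, complement uptake and movement across vessel walls, whereas other alpha chains bind fibronectin, laminin, collagen, or latent TGF-beta. Microglia do not circulate, and integrins on them are known as receptors for matrix, complement and latent TGF-beta.

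The sorted cells carried the markers of their labels. All 16 measured microglia markers were higher in BSM (median difference 6.56, summed intensity 1420 to 1630 in BMDM and 63000 to 64000 in BSM), and all 11 measured monocyte markers were lower (median -6.75, 31100 to 33400 against 260 to 323). All 14 neutrophil and granule markers were also lower in BSM, with a summed intensity of 15500 to 18100 in BMDM and 330 to 436 in BSM. Of the genes of the sort, Csf1r (CD115) was 1.98 higher in BSM, although BSM were gated as CD115low. Ptprc (CD45) was lower in BSM (-0.49, adjusted p = 0.0083), as was Ly6g (-1.31, adjusted p = 0.025). The arrays read RNA and not surface protein. Arrays of a cell type correlated at 0.983 to 0.992 over all rows and arrays of different cell types at 0.855 to 0.870. The median intensity of an array was 42.8 to 45.2 in BMDM and 48.8 to 52.1 in BSM, and the median difference over all rows was 0.18. Over the table, 49.6% of rows passed the test, 28.0% higher and 21.6% lower in BSM. Each count of called genes in a list below is to be read beside these shares. Counts of higher and lower rows were 6120 and 4718 as deposited, 3253 and 5792 once array medians were made equal, and 1955 and 4779 in the other deposited table, made with Expression Console. In these bulk samples, fewer cells of a type and less RNA per cell cannot be told apart.

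Against that background of 49.6%, 7 of the 9 measured alpha subunits passed the test, 5 higher and 2 lower in BSM. Itga9, Itga6 and Itgav were higher by at least 4-fold, which 2.28% of all rows were, and Itgal was lower by at least 4-fold, which 3.34% of all rows were (5.62% in either direction). Itgav only just passed this line (log2 2.03). It was under 4-fold by Expression Console (1.72) and after median centring (1.84), and over it after a further quantile normalization (2.30). Itgam, Itgax and Itga5 differed less, and Itga2 and Itga2b did not pass. In the same 7 genes the arrays of the 2 cell types did not overlap, which held for 60.8% of all rows. In the Expression Console table, which had a row for 8 of the members, 4 were higher and 2 lower, where 8.38% of its rows were higher, 20.5% lower and 28.9% called. The median difference over the 9 was 0.56, beside 0.17 over all genes. SDs among replicates were between 0.01 and 0.37.

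**Figure D1:**
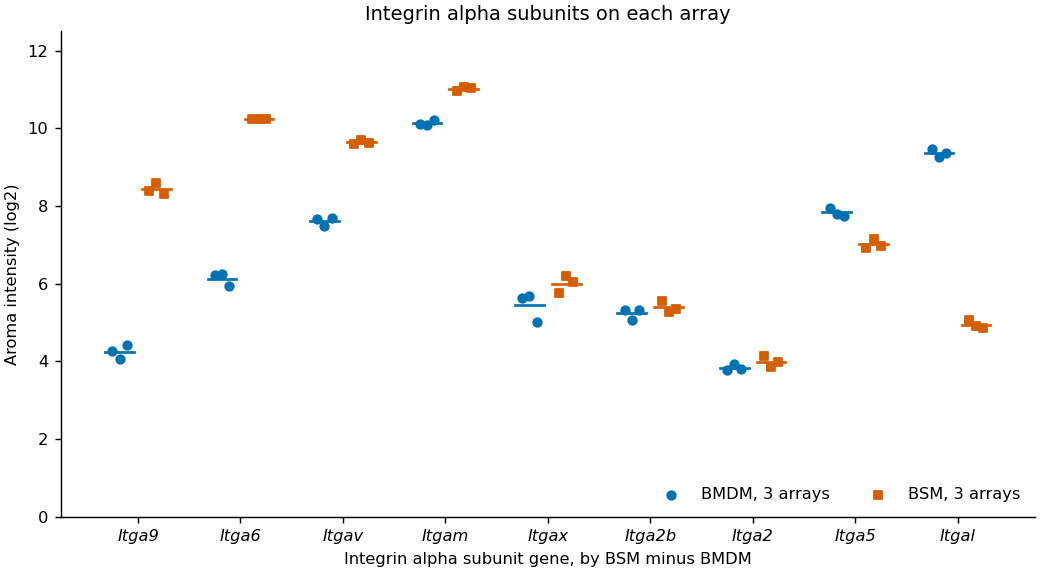
Each point is 1 array, the y axis is the log2 Aroma intensity, and lines mark the mean of the 3 arrays of a cell type for each alpha subunit gene, ordered from the highest to the lowest difference. The cell types stand 3.89 or more apart for Itga9, Itga6 and Itgal and overlap for Itga2 and Itga2b. Heights of different genes rest on different probes and are not to be compared.

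Itgam encodes CD11b, the alpha chain of Mac-1, which binds iC3b, fibrinogen and ICAM-1, and CD11b was itself the gate through which both cell types were sorted. Itgax encodes CD11c, the alpha chain of another receptor for iC3b, best known as a marker of dendritic cells. In RefSeq's GRCm38.p6 annotation the 2 genes follow each other on chromosome 7, with Itgad as the next protein-coding gene. Their promoters are shown because Itgam and Itgax are such neighbours and both were called higher in BSM. The sequences are RefSeq's (GRCm38.p6, + strand, 250 bases before to 50 after the start site, chr7:128062390-128062689 for Itgam and chr7:128129300-128129599 for Itgax), and capitals mark the PU box GAGGAA or its reverse complement TTCCTC. The PU box is the core bound by PU.1, a myeloid transcription factor known to act on the human CD11b promoter.
Itgam: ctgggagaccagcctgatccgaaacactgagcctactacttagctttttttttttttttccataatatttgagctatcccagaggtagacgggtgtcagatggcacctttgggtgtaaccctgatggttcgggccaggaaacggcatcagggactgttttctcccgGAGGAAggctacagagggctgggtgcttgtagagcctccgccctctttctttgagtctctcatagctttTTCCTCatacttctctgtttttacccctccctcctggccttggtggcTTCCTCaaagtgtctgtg
Itgax: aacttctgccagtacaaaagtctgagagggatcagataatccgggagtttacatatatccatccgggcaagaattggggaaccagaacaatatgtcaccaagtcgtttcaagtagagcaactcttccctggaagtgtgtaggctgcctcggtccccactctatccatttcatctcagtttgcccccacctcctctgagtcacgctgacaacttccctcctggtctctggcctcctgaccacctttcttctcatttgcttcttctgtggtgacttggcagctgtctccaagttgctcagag

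The Itgam window held 3 PU boxes, the first base of which lay at -84, -15 and 33 from the start site, whereas the Itgax window held none. On both strands, GAGGAA was found in 28.3% of 32851 mouse promoters of the same length. A GC box (GGGCGG) lay at -47 in Itgam and was not found in Itgax, against 35.7% of all promoters, and TATAAA was in neither, against 13.6%. Promoters were listed for 8 of the 10 alpha subunits, and 4 of the 8 (Itga2b, Itga5, Itgam and Itgav) held a PU box. For Itga9 and Itgav the listed start site lay well inside the annotated gene, so these windows are not at the gene start. These matches are letters in a window and were not tested for binding.

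Itgam measured 10.12, 10.09 and 10.21 on the BMDM arrays and 10.95, 11.06 and 11.05 on the BSM arrays. Every BSM array was above every BMDM array, with a gap of 0.74 between the closest. The means were 10.14 ± 0.06 and 11.02 ± 0.06 (SD, n = 3), a difference of 0.88 (SE 0.10, 95% interval 0.66 to 1.10, 1.84-fold, adjusted p = 0.00012). The Expression Console table, made from the same arrays, gave 0.75 (adjusted p = 0.0059).

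Itgax measured 5.64, 5.68 and 5.02 in BMDM and 5.77, 6.19 and 6.05 in BSM. BMDM replicate 3 was the low array, and the lowest BSM array was only 0.09 above the highest BMDM array. The means, 5.45 in BMDM and 6.01 in BSM, lay near the array medians of 5.42 to 5.70. The difference was 0.56 (SE 0.19, 95% interval 0.11 to 1.01, 1.47-fold, adjusted p = 0.043), the least certain of the 7 called. Without BMDM replicate 3 it was 0.34 (adjusted p = 0.099), without BSM replicate 2 it was 0.47 (adjusted p = 0.11) and without BSM replicate 3 it was 0.53 (adjusted p = 0.098), so the call rested on single arrays. It was also lost after a further quantile normalization (0.42, adjusted p = 0.18) and after median centring (0.37, adjusted p = 0.21). Replicate 1, the female array of each cell type, differed by 0.13 and the means of the male arrays by 0.77. The Expression Console row of Itgax was shared with Slc25a51 and gave no check. Of 11 dendritic cell markers, 5 were higher and 5 lower in BSM, with a summed intensity of 1730 to 1930 in BMDM and 1660 to 1950 in BSM, led by Cd83 (3.41 higher) and Cd209a (-2.95). The part of such cells in the Itgax value was not tested.

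Itgal encodes CD11a, the alpha chain of LFA-1, which binds ICAM-1 and ICAM-2 and carries the arrest of leukocytes on vessel walls. It measured 9.46, 9.27 and 9.36 in BMDM and 5.06, 4.90 and 4.85 in BSM. The cell types stood 4.21 apart at their closest arrays. The means of 9.37 ± 0.09 and 4.94 ± 0.11 (SD, n = 3) differed by -4.43 (SE 0.11, 95% interval -4.67 to -4.18, 21.5-fold lower in BSM, adjusted p = 2.3e-08). This was the lowest difference of the 9 alpha subunits. On the linear scale the mean fell from 661 in BMDM to 30.7 in BSM, below the median of any array, and without detection calls a remaining transcript level at that intensity cannot be told from background. The Expression Console table gave -4.52 (adjusted p = 9.5e-06). LFA-1 is also found on lymphocytes and neutrophils. Of 10 measured T and NK cell markers, 2 passed the test, both lower in BSM, and 8 were not called. Their summed intensity was 492 to 852 in BMDM and 231 to 296 in BSM. Most of the BMDM sum came from Nkg7 (means 8.85 in BMDM and 5.10 in BSM, difference -3.76). The granule markers given above were also lower in BSM. Of 7 measured B cell and plasma cell markers, 2 were higher and 4 lower, with Cd79a at -2.46. Their summed intensity was 572 to 722 in BMDM and 1600 to 1750 in BSM. Most of the BSM sum came from Blnk alone (means 5.37 in BMDM and 10.08 in BSM, 4.71 higher). The part of such cells in the Itgal value was not tested.

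Itgav encodes the alpha chain shared by the vitronectin and latent TGF-beta receptors, which bind the RGD motif. It measured 7.66, 7.48 and 7.68 in BMDM and 9.59, 9.69 and 9.63 in BSM, without overlap. The means were 7.61 ± 0.11 and 9.64 ± 0.05 (SD, n = 3), a difference of 2.03 that made Itgav 4.08-fold higher in BSM (SE 0.10, 95% interval 1.79 to 2.26, adjusted p = 1.0e-06). The Expression Console table gave 1.72 (adjusted p = 0.00026).

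Itga5 encodes the alpha chain of the main fibronectin receptor and was the other subunit that was lower in BSM. It measured 7.95, 7.80 and 7.75 in BMDM and 6.92, 7.16 and 6.96 in BSM, with a gap of 0.59 between the closest arrays. The difference was -0.82 (SE 0.11, 95% interval -1.08 to -0.56, 1.77-fold, adjusted p = 0.00043), and -1.16 by Expression Console (adjusted p = 0.00083). Itgav and Itga5 thus passed the test in opposite directions.

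Itga6 encodes the alpha chain of laminin receptors. It measured 6.22, 6.24 and 5.94 in BMDM and 10.24, 10.23 and 10.25 in BSM. The BSM arrays were nearly equal, with an SD of 0.01, and stood 3.99 above the highest BMDM array. The difference was 4.11 (SE 0.11, 95% interval 3.85 to 4.37, 17.2-fold, adjusted p = 3.8e-08), and the mean linear intensity was 70.3 in BMDM and 1207 in BSM. The Expression Console table gave 3.73 (adjusted p = 2.9e-05).

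Itga9 encodes a receptor chain that binds tenascin, osteopontin and VCAM-1, and it had the highest difference of the 9. It measured 4.26, 4.07 and 4.42 in BMDM and 8.38, 8.60 and 8.31 in BSM, 3.89 apart at the closest arrays. The difference was 4.18 (SE 0.13, 95% interval 3.88 to 4.47, 18.1-fold, adjusted p = 6.3e-08), and 3.89 by Expression Console (adjusted p = 2.0e-05). The mean BMDM intensity was 19.1 on the linear scale, below the array medians, so this fold rests on a dim level in BMDM. The intervals of Itga6 (3.85 to 4.37) and Itga9 (3.88 to 4.47) overlapped, and the difference between the 2 was not tested.

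Itga2, a collagen receptor chain known from platelets and epithelia, measured 3.77, 3.94 and 3.81 in BMDM and 4.13, 3.85 and 3.98 in BSM. Itga2b, the platelet fibrinogen receptor chain CD41, measured 5.31, 5.07 and 5.33 in BMDM and 5.56, 5.26 and 5.35 in BSM. For both genes the cell types overlapped and each value was below the median of its array. The differences were 0.15 for Itga2 (95% interval -0.11 to 0.41, adjusted p = 0.28) and 0.16 for Itga2b (95% interval -0.13 to 0.44, adjusted p = 0.31). Both were close to the median of all rows (0.18), and both turned to below 0 after median centring (-0.04 and -0.03) and in the Expression Console table (-0.08 and -0.04). In that table Itga2 stood at 3.15 on 5 of the 6 arrays and Itga2b at 5.10 on 4 of the 6. Of 13 platelet and megakaryocyte markers, 5 were higher and 2 lower in BSM (summed intensity 1420 to 1550 in BMDM and 1120 to 1240 in BSM). After median centring 3 were higher and 2 lower, and of 9 with an Expression Console row 1 was higher and 2 lower. The largest changes were Nfe2 (-4.39) and Gp9 (3.55), and the part of platelets in the Itga2b value was not tested.

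**Figure D2:**
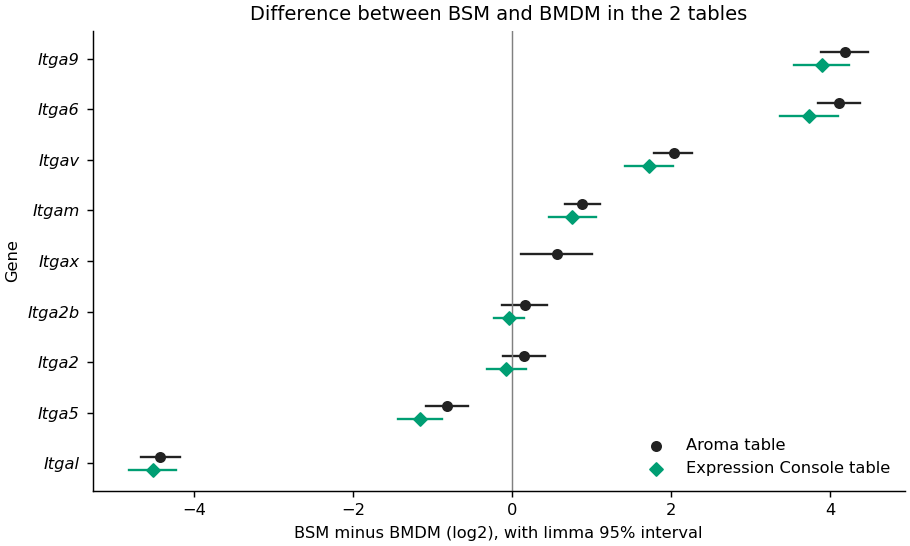
Points are the difference of BSM minus BMDM (log2, x axis) of each alpha subunit gene, circles from the Aroma table and diamonds from the Expression Console table of the same 6 arrays, and bars are 95% intervals of limma. The 6 subunits called in both tables lie on the same side of 0 in both, Itga2 and Itga2b straddle 0, and Itgax has an Aroma value only.

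The members were also set against each other within each array, as the difference of one gene from another with its BMDM mean at 0, for 4 pairs. With 3 arrays against 3, the exact permutation test cannot go below p = 0.1. Itgal relative to Itgam stood at 0.11, -0.04 and -0.07 in BMDM and at -5.11, -5.39 and -5.43 in BSM, a shift of -5.31 (SE 0.11, 39.6-fold, exact p = 0.1, 0.13 adjusted over the 4 pairs). The alpha chains of LFA-1 and Mac-1, which share a beta chain, thus stood apart on every BSM array. Itgal relative to Itgax shifted by -4.99 (SE 0.29) and Itga5 relative to Itgav by -2.85 (SE 0.09), each without overlap and each at the smallest exact p of 0.1 (0.13 adjusted). Itgax relative to Itgam stood at 0.21, 0.29 and -0.50 in BMDM and -0.48, -0.18 and -0.30 in BSM. These overlapped, and the shift of -0.32 (SE 0.27, exact permutation p = 0.4, adjusted p = 0.4) was about the size of its error. By the same test it was -0.57 without BMDM replicate 3 and -0.85 after a further quantile normalization (adjusted p = 0.1 each). Without BMDM replicate 2 it was -0.18 (adjusted p = 0.7), so its size depended on single arrays and on the scaling.

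**Figure D3:**
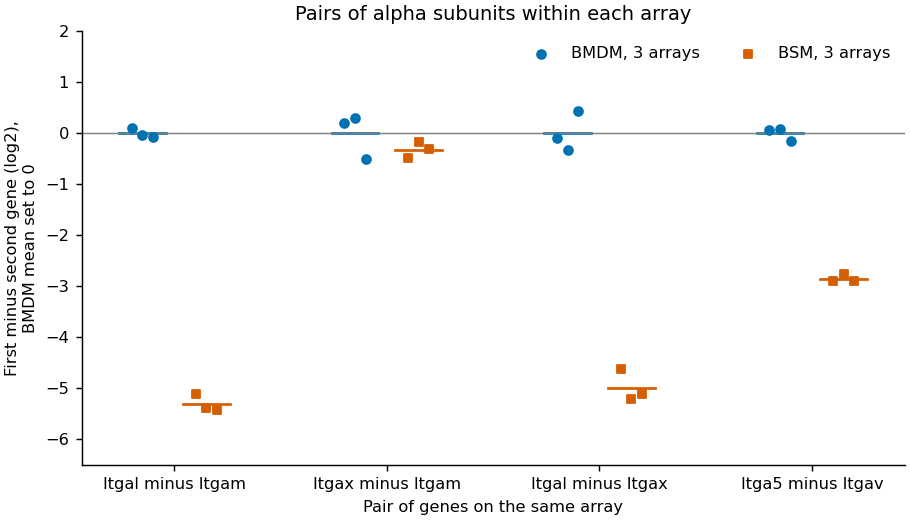
Each point is 1 array, and the y axis is the log2 value of the first gene of a pair minus that of the second, with the mean of the 3 BMDM arrays set to 0. Lines are means, and the BSM arrays lie at -2.76 or lower for each pair except Itgax minus Itgam, where the cell types overlap.

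Each alpha chain needs a beta chain to reach the surface, and all 8 beta subunit genes had a row. Of these, 3 were higher in BSM, 2 were lower and 3 did not pass, with a median of 0.26. Over all rows, 28.0% were higher and 21.6% lower. Itgb5, a partner of the Itgav product in a vitronectin receptor, measured 6.76, 6.51 and 6.68 in BMDM and 10.98, 11.07 and 10.94 in BSM. That 20.3-fold difference (log2 4.34, SE 0.11, adjusted p = 2.4e-08) exceeded the 4.08-fold of Itgav. Further partners of Itgav differed less, among them Itgb8, which activates latent TGF-beta, 0.63 higher (adjusted p = 0.0036) and Itgb3, 0.57 higher (adjusted p = 0.0043). Itgb8 was dim (means 4.29 and 4.92), below the median of the array on each of the 6, and had no Expression Console row to check it. Itgb3 was not called by Expression Console values (0.25, adjusted p = 0.29) or after median centring (0.38, adjusted p = 0.055), and Itgb6, an epithelial partner, gave 0.24 (adjusted p = 0.091).

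Itgb7, which pairs with the Itga4 and Itgae products in receptors for MAdCAM-1 and E-cadherin, measured 9.80, 9.79 and 9.69 in BMDM and 5.99, 5.84 and 5.87 in BSM. It was 14.5-fold lower in BSM (log2 -3.86, SE 0.10, adjusted p = 2.7e-08). Itgb2, the common partner of the Itgal, Itgam and Itgax products, differed little next to Itgal, at -0.37 (means 10.76 ± 0.09 and 10.38 ± 0.19, SD, n = 3, adjusted p = 0.037). It was not called by Expression Console values (-0.62, adjusted p = 0.072) or after a further quantile normalization (-0.01, adjusted p = 0.95). The call was also lost with any BMDM array left out (adjusted p = 0.1, 0.052 and 0.095 without replicates 1, 2 and 3), and without BSM replicate 1 (-0.26, adjusted p = 0.083) or 3 (-0.40, adjusted p = 0.059). Itgb1, whose partners include the Itga2, Itga4, Itga5, Itga6 and Itga9 products, gave 0.23 (means 9.65 and 9.88, adjusted p = 0.12). It was called only after a further quantile normalization (0.57, adjusted p = 0.0012). Itgb4, the other partner of Itga6 and a part of hemidesmosomes, gave 0.28 (adjusted p = 0.075).

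**Figure D4:**
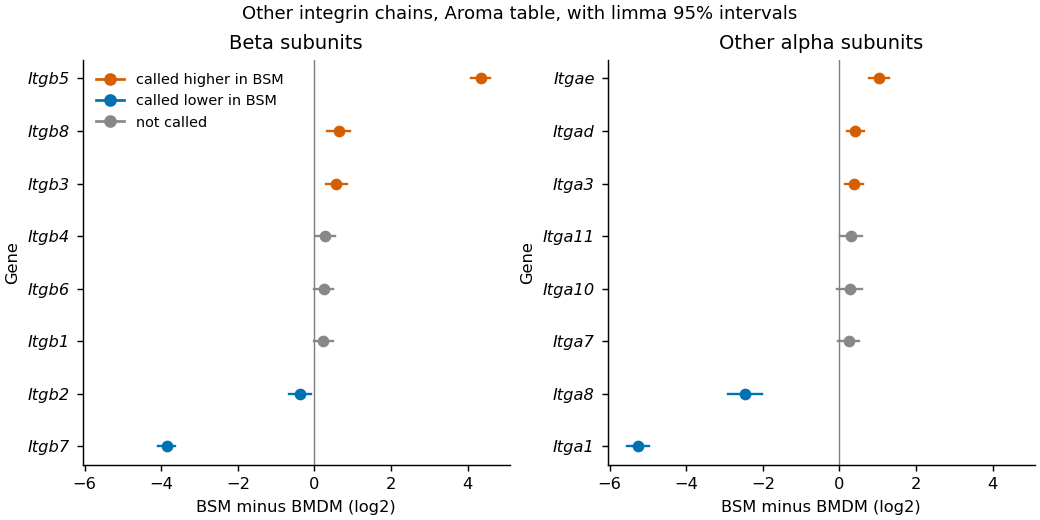
Points are the difference of BSM minus BMDM (log2, x axis) in the Aroma table for the 8 beta subunits (left) and the 8 other alpha subunits (right), with 95% intervals of limma as bars and colours for genes called higher, called lower or not called. Itgb5 at 4.34 and Itgb7 at -3.86 stand apart from the other beta chains, and Itga1 at -5.27 and Itga8 at -2.47 from the other alpha chains.

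Of the 8 further alpha subunits, 3 were higher, 2 lower and 3 not called (median 0.28), where 28.0% of all rows were higher and 21.6% lower. Itga1, a collagen and laminin receptor chain, measured 8.91, 9.09 and 8.78 in BMDM and 3.81, 3.59 and 3.57 in BSM. The difference was -5.27 (SE 0.12, adjusted p = 2.0e-08), and its size rests on BSM values below the array medians, as that of Itgal does. Itga8 was lower too (-2.47, SE 0.19, adjusted p = 1.3e-05), whereas Itgae, which encodes CD103, was 1.03 higher (adjusted p = 0.00013). Itgae was dim, below the array medians in BMDM (mean 4.57) and near them in BSM (mean 5.60). Itgad, the next gene after Itgax, was 0.41 higher (adjusted p = 0.0078) and Itga3 0.38 higher (adjusted p = 0.018). Both of these calls were lost after median centring and after a further quantile normalization, and that of Itga3 also without BMDM replicate 2. Itgad (means 4.67 and 5.08) and Itga3 (4.63 and 5.01) were below the median of every array. Itga7 (0.24), Itga10 (0.27) and Itga11 (0.30) did not pass.

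Genes for proteins that act on integrins from inside the cell were counted over 20 measured activators and adaptors. Of these, 4 were higher in BSM and 8 lower (median -0.16), against 28.0% and 21.6% of all rows. Not all of them open integrins, so the counts give no direction of activation. With median centring the counts were 3 and 11, and with a further quantile normalization 5 and 5. The lowest were Cytip (-5.50), which binds the LFA-1 regulator cytohesin, Rasgrp2 (-4.01), the exchange factor for the small GTPase Rap1, and Vcl (-3.30), which encodes vinculin. The highest were Dab2 (3.12), an adaptor for integrin uptake, Tln2 (1.66), a talin, and Apbb1ip (0.69), the Rap1 effector RIAM. Cytip and Rasgrp2 in BSM and Dab2 and Tln2 in BMDM were below the array medians, which limits the size of their differences. Tln1, the talin of blood cells, was lower (-1.37, adjusted p = 1.6e-05), while Fermt3, the kindlin of blood cells, gave -0.11 (adjusted p = 0.44).

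Of 25 genes for integrin ligands, 7 were higher in BSM and 7 lower (median 0.12), against 28.0% and 21.6% of all rows. After median centring the counts were 4 and 8. The junction proteins F11r, a ligand of LFA-1, and Jam2, a ligand of Itga4 integrins, were 7.20 and 4.50 higher, and Icam1, a ligand of LFA-1 and Mac-1, was 1.51 higher. Fn1 (fibronectin, bound by the Itga5 product) gave -7.67, C3 (the source of iC3b) gave -6.37 and Icam2, a ligand of LFA-1, gave -1.50. Each of these 6 passed with an adjusted p of 5.2e-05 or less. Except for Icam1, the lower cell type of each was below the array medians, so the sizes of these differences rest on dim levels.

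Genes with the pattern nearest to 4 of the subunits were taken from the other 18429 by Euclidean distance over the 6 arrays, after each gene was centred. These distances describe 6 arrays in 2 groups, so any gene with a like difference and little spread comes close. Lpcat2, Bmpr1a and Stab1 came nearest to Itga9 (0.17 to 0.22), and Cables1, Adap2 and Inka1 to Itga6 (0.13 to 0.25). Nfe2, Vav3 and Aoah came nearest to Itgal (0.18 to 0.21), and Psme3, Dpp3 and Piezo1 to Itga5 (0.04 to 0.08).

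The labels give sex for each pool, so the members were also read within each sex. Female values are 1 array against 1, with no test. The sample titles number both female arrays in another range than the 4 male arrays, and the study also used these female pools for RNA sequencing. Sex and set therefore cannot be told apart. The main text of the study describes the mice as male, whereas its supplement lists both of these pools as female, as the labels do. Itga6 differed by 4.02 in the female and 4.15 in the male arrays, Itga9 by 4.11 and 4.21, Itgal by -4.40 and -4.44, Itgav by 1.92 and 2.08, Itgam by 0.83 and 0.91, and Itga5 by -1.04 and -0.71. For all 9 measured members the sign was the same in both sexes. In the 7 whose cell types did not overlap it had to be, so this is no separate result for them. Itga2 gave 0.36 in the female and 0.05 in the male arrays, and Itga2b 0.25 and 0.11. Over all arrays both turned to below 0 after median centring. The share of all rows with the same sign in both sexes was not counted.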

How the data were processed

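RNA of sorted BMDM and BSM, 3 arrays each, was measured on Affymetrix Mouse Exon 1.0 ST arrays. The 12 GEO samples are these 6 arrays summarised by 2 programs. In the Aroma table the authors deposited linear intensity per gene, which Aroma computed by RMA (background correction, then quantile normalization, then a log-additive probe model). In the Expression Console table they deposited log2 values per transcript cluster after RMA. The annotation version is not given in the sources used here. Neither table holds detection calls or exon values, and 0 per-sample columns were left unused.

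The Aroma table had 21837 rows (18821 with 1 gene symbol, 763 with several, 2253 with none) and the other 23332 rows (14996, 1019 and 7317). Older symbols were updated through RefSeq names of GRCm38.p6 (2858 and 27 rows), which left 18430 and 14847 genes, each by its row with the highest mean. Log2 values were tested with lmFit and eBayes (limma 3.58.1, R 4.3.3), two-sided, without covariate or filter, with Benjamini-Hochberg adjustment over all rows of a table. The steps were tested on simulated data. The number of arrays limits the precision, and p-values measure the spread between the sorted pools.

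Named were all 10 members, all beta and other alpha subunits, the 3 highest and 3 lowest called activators and ligands, the sort markers, up to 2 genes with the largest changes of each marker list set beside a member, and the 3 nearest genes of 4 members. Tln1 and Fermt3 were named after their values were seen. Members and lists were chosen with earlier results of these data known. Alternatives were the other table, a block for the replicate number, a covariate for sex, each array left out in turn, only rows of a mean at or over the median (5.63), a further quantile normalization, equal array medians, trended and robust eBayes, the methods' t-test on linear values, and a gene's rows averaged.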

Additional observations from a re-analysis of the deposited data

How the results depend on the processing

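Over 16 alternatives, 4 or 5 of the alpha subunits were higher in BSM and 2 were lower in each. Itga5, Itga6, Itga9, Itgal, Itgam and Itgav kept their direction and their call in all 16. Itga5 ranged from -1.16 to -0.65, Itga6 from 3.73 to 4.27, Itga9 from 3.89 to 4.26, Itgal from -4.62 to -4.38, Itgam from 0.69 to 1.27 and Itgav from 1.72 to 2.30. Itgax lost its call in 7 of 14, beside those given in the report with sex as a covariate (0.56, adjusted p = 0.055) and by the methods' t-test (0.54, adjusted p = 0.12), and leaving out 1 array gave 0.34 to 0.68. Itga2 and Itga2b, not called in any setting, turned to below 0 with a further quantile normalization (-0.07 and -0.07), with median centring (-0.04 and -0.03), in the Expression Console table (-0.08 and -0.04) and in its rows with 1 symbol (-0.08 and -0.04). That last alternative was chosen after seeing the data. The cause was not tested. Over the table, 6120 rows were higher, against 3342 when only rows at or over the median mean were fitted, 3253 with centring, 1955 in the Expression Console table and 1611 in its rows with 1 symbol. Lower rows numbered 4145 to 5792, against 4718. With the replicate number as a block, 5 members were higher and 2 lower, the same counts as without it, 5727 rows were higher and 4592 lower, and the Itgb2 call was lost (adjusted p = 0.06). Same-numbered arrays deviated together little (correlations 0.0649, 0.00214 and 0.0112), so the numbers were not taken to pair them, although both arrays of replicate 1 share a sex and a set. The pair Itga4 with Itga9 was planned and not run, since Itga4 has no row of its own. The shifts of the 4 pairs kept their direction in 8 or 9 alternatives each, Itgax against Itgam between -0.85 and -0.18. Dim levels (Itga2, Itga2b, Itga3, Itgad and Itgb8, Itga9 and Itgae in BMDM, Itgal, Itga1 and Itga8 in BSM) include background, which limits their folds. So do those of F11r, Jam2, Dab2 and Tln2 in BMDM and of Fn1, C3, Icam2, Cytip and Rasgrp2 in BSM. Itgax lay near the array medians, so its values may include background too.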
